A study of Mus musculus with 12 samples.

Results

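Imprinted genes are transcribed mainly or wholly from the copy inherited from 1 parent. The set examined here holds 40 mouse genes chosen by name, of which 38 had a row in both deposited tables of 38720 genes. Of these 38, 16 are maternally expressed in at least some mouse tissue, 20 are paternally expressed, and 2, Gnas and Grb10, are expressed from either copy depending on the transcript or tissue. The paternally expressed Peg13 and Kcnq1ot1 were not found by symbol and were not analysed here. All libraries came from newborn (P0) retinas of strain C57/BL6. In the mKO group, Math5-Cre drove deletion of Ezh2 (Math5-Cre;Ezh2 flox/flox), and the control group was labelled wild type (WT). Each genotype was split with anti-CD90 (Thy-1) magnetic beads into captured retinal ganglion cells (RGCs) and the remaining non-RGC cells, with 3 libraries in each of the 4 groups. Math5-Cre acts in only part of the RGCs and in a small part of the other retinal cells, so the mKO libraries mix cells with and without the deletion. The sequencing methods of the paper also name WT mice. Its results call these controls littermates as well as WT, and flox/flox littermates were its default controls. The exact control genotype is thus not settled.

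Imprinting is set in the germ line, where a control region near each gene cluster is methylated in either the egg or the sperm. Most imprinted genes lie in such clusters, and many of them act in fetal growth, in the placenta or in the brain. Ezh2 is the main catalytic subunit of Polycomb repressive complex 2 (PRC2), which places H3K27me3, a mark found on the silent copy of some imprinted genes. The libraries came from 1 strain and reads were counted per gene, so no value below says which parental copy a transcript came from.

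The 12 libraries held 7139633 to 13014004 reads assigned to genes. Values below are normalised reads, that is, reads divided by the size factor the authors used for each library. The 3 libraries of a group are given in the order A, B, C, which follows falling depth and carries no pairing between groups. A gene was called when its limma p-value, adjusted by the Benjamini-Hochberg method over all genes tested, was under 0.05. Ezh2 was at 1354, 1476 and 1443 in mKO RGCs and 1189.9, 1206 and 1678 in WT RGCs, a difference of 0.087 ± 0.13 (log2, SE; limma adjusted p = 0.637). In non-RGCs Ezh2 differed by 0.13 ± 0.15 (log2, SE; limma adjusted p = 0.584). The count covers the whole gene and the deletion removes only the exons of the SET domain, so this count does not check the deletion. The paper reports a change in Ezh2 from its RNA-seq, whereas the gene count here was not called. It also reports less Ezh2 in newborn mKO RGCs by qPCR and Western blot, and in its text less H3K27me3 labelling in the ganglion cell layer. Of 12 RGC marker genes, 10 were called lower in mKO RGCs (beside 21.2% of all genes) and 8 were called higher in mKO non-RGCs (beside 4.18%). With the trend in base composition described below removed, these counts were 9 and 5 (beside 8.58% and 0.745% of all genes). The summed level of these 12 markers was 23384 to 24514 in mKO RGCs and 32395 to 35033 in WT RGCs. In non-RGCs it was 6008 to 8209 in mKO and 5635 to 5968 in WT, so it was lower in mKO in the captured fraction and higher in the rest. The captured fraction thus carried the defining RGC transcripts in every library, but it also held transcripts of other retinal cells. In WT the median summed level of 8 progenitor markers was 13464 in RGCs and 23431 in non-RGCs. It was 7547 and 13770 for 8 photoreceptor markers, and 6320 and 11796 for 8 amacrine and horizontal markers. Values given for RGCs are therefore those of an enriched fraction. In bulk libraries such as these, fewer cells of a type, less RNA per cell and a different split of cells between the fractions cannot be told apart.

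Members were called in both directions in RGCs, at shares near those of all genes. Of 35 members tested, 6 rose in mKO RGCs (17.1%, beside 16.3% of 16085 genes) and 6 fell (17.1%, beside 21.2%). Peg3, Peg10, Copg2, Ube3a, Impact and Ppp1r9a were the members that rose. Gnas, Nnat, Ndn, Snrpn, Cdkn1c and Blcap were the members that fell. In non-RGCs, 0 of 34 members tested were called higher (beside 4.18% of 15326 genes) and 2 were called lower, Gnas and Igf2 (5.88%, beside 6.43%). The study called genes with DESeq, at a p under 0.05 together with a change of 1.5-fold or more. Those thresholds were also applied to the unadjusted limma p-values and fold changes, which are another test. With them, 1 member passed as higher and 3 as lower in RGCs (beside 10% and 6.22% of all genes). In non-RGCs 0 passed as higher and 4 as lower (beside 8.89% and 6.79%). The change from WT to mKO was also compared between RGCs and non-RGCs in 1 limma fit over all 12 libraries. That difference was called for 0 of 34 members in either direction, beside 0.0% of 14894 genes higher and 0.107% lower. At an unadjusted p under 0.05 it was 4 members (Inpp5f, Gnas, Ube3a and Ppp1r9a; 11.8%, beside 10.1% of all genes), with adjusted p-values of 0.453 or more.

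**Figure D1:**
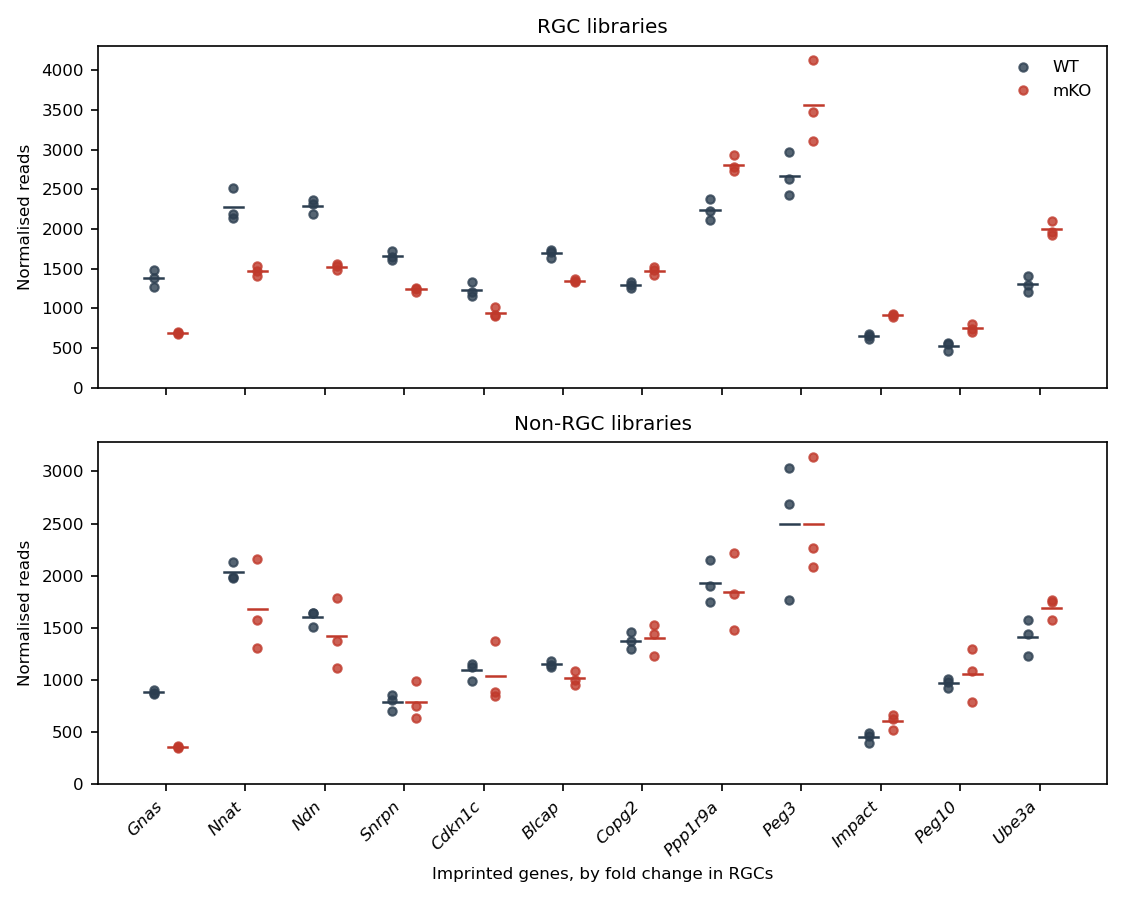
Normalised reads (linear axis from 0) of the 12 imprinted genes called in RGCs, in the 3 WT and 3 mKO libraries of each fraction; points are libraries and bars are group means. In RGCs the mKO and WT points of each gene do not overlap; in non-RGCs full separation remains for Gnas, Blcap and Impact, and for Ube3a only by 1571.0 against 1570.5.

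Fold changes also followed base composition across the whole genome. Genes averaging 50 normalised reads or more were ordered by exon GC and cut into 5 equal bins. The lowest bin (33.6 to 44.8% GC) had a median log2 change of 0.36 in RGCs and the highest (55.9 to 73.7%) had -0.45. In non-RGCs the same medians were 0.19 and -0.36. Each change was therefore also computed after the trend with GC had been subtracted. Without that trend, 2 members were called higher in RGCs, Peg10 and Impact (5.71%, beside 4.37% of 15185 genes), and 5 were called lower, Ndn, Snrpn, Gnas, Sgce and Nap1l5 (14.3%, beside 8.58%). In non-RGCs, 0 members were then called higher (beside 0.745% of 14497 genes) and 1, Gnas, was called lower (2.94%, beside 0.524%). By a split made after their values were seen, 0 of 13 members with an exon GC of at least 50% rose in RGCs and 4 fell, beside 2.2% and 35.3% of all such genes. Of 22 members below that GC 6 rose and 2 fell, beside 30.6% and 6.91%. Calls for Gnas, Ndn, Snrpn and Impact in RGCs, and for Gnas in non-RGCs, held under every setting of the limma fit that was tried.

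**Figure D2:**
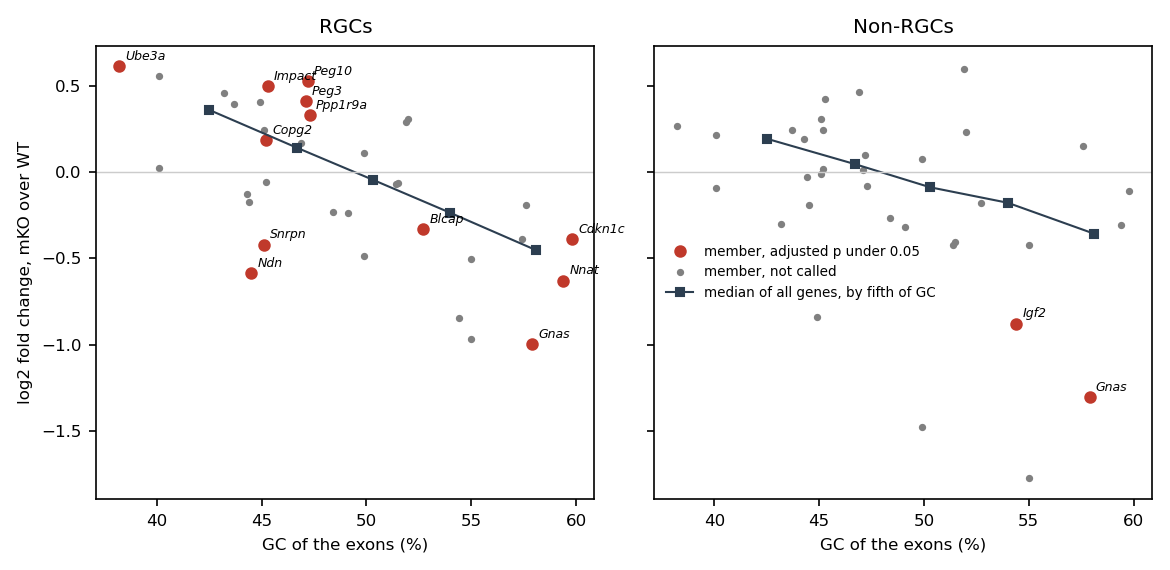
log2 fold change (mKO over WT, vertical) against exon GC in percent (horizontal) for the members tested in each fraction; large red points are members called, small grey points are members not called, and the line joins the medians of all genes in each of 5 GC bins. In RGCs, Ube3a, at 38.2% GC, lies at the high end and Gnas and Nnat, at 57.9 and 59.4%, at the low end, while Ndn and Snrpn lie below the line.

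Gnas was the member called lower in both fractions. It encodes the stimulatory G protein alpha subunit from both copies in most cells, and its locus also makes a maternal transcript and paternal transcripts from other start sites. Gnas was at 704, 676 and 682 normalised reads in mKO RGCs and at 1375, 1484 and 1267 in WT RGCs. In non-RGCs it was at 363, 359 and 347 in mKO and at 876, 904 and 863 in WT. Neither fraction had any overlap between genotypes. Gnas fell by 0.997 ± 0.071 in RGCs (log2, SE; limma adjusted p = 0.000644) and by 1.30 ± 0.13 in non-RGCs (limma adjusted p = 0.00319), to 50.1% and 40.5% of WT. With the GC trend removed Gnas fell by 0.58 in RGCs and by 0.97 in non-RGCs (limma adjusted p = 0.00869 and 0.0144). Over all settings tried the adjusted p-values ran from 4.9e-05 to 0.0121 in RGCs and from 0.00143 to 0.0246 in non-RGCs. The difference between fractions was 0.31 ± 0.12 (log2, RGC minus non-RGC; limma adjusted p = 0.467). Gnas (chr2:174284320-174346744, GRCm38) shares 2457 exonic bases with opposite-strand genes, Nespas among them, and the library kit kept no strand, so reads from those bases cannot be told apart. The gene count also cannot say which of its transcripts was lower.

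The Snrpn cluster on chromosome 7 is the mouse counterpart of the Prader-Willi and Angelman region, with paternally expressed genes beside the maternally expressed Ube3a. Ndn encodes necdin, a MAGE-family protein of postmitotic neurons. It was at 1485, 1559 and 1527 in mKO RGCs and at 2193, 2311 and 2359 in WT RGCs. Ndn thus fell by 0.59 ± 0.053 (log2, SE; limma adjusted p = 0.000657), and by 0.81 with the GC trend removed, or by 0.54 with trends in GC and reads per base removed. Snrpn encodes a neuronal Sm protein of the spliceosome. Its values were 1206, 1246 and 1260.0 in mKO RGCs against 1641, 1716 and 1609 in WT RGCs. It fell by 0.42 ± 0.052 (log2, SE; limma adjusted p = 0.0014), and by 0.61 with the GC trend removed, or by 0.29 with trends in GC and reads per base removed. In both genes every mKO RGC library lay below every WT RGC library. In non-RGCs the genotypes overlapped, with differences of -0.19 ± 0.17 for Ndn and -0.013 ± 0.18 for Snrpn (log2, SE; limma adjusted p = 0.464 and 0.967). Snrpn shares 805 exonic bases with same-strand genes, Snurf among them.

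Of the other members in that cluster, Ube3a was called in RGCs and Magel2 and Mkrn3 were not. Magel2, a MAGE-family gene next to Ndn, was at 503, 479 and 507 in mKO RGCs and 646, 638 and 439 in WT RGCs (-0.19 ± 0.15, log2, SE; limma adjusted p = 0.362). Mkrn3, a RING-finger gene, was at 286 to 312 and 251 to 287 (0.11 ± 0.097; limma adjusted p = 0.406). Ube3a, the E3 ubiquitin ligase lost in Angelman syndrome, is maternally expressed in mature neurons and from both copies in most other cells. Ube3a was at 1926, 1959 and 2099 in mKO RGCs and at 1295, 1410.2 and 1207 in WT RGCs, with no overlap. It rose by 0.61 ± 0.072 (log2, SE; limma adjusted p = 0.00115). Its exons hold 38.2% GC, the lowest of the members tested, and with the GC trend removed its change was 0.043 (limma adjusted p = 0.765; 0.000173 to 0.997 over all settings). In non-RGCs Ube3a was at 1745, 1571.0 and 1765 in mKO and 1438, 1570.5 and 1232 in WT (0.27 ± 0.13, log2, SE; limma adjusted p = 0.195). Of its 20626 exonic bases, 5624 lie opposite other genes, Snhg14 among them.

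Nnat and Blcap share a locus on chromosome 2, where the small paternally expressed gene Nnat lies inside Blcap on the other strand. Nnat encodes neuronatin, a membrane proteolipid of the developing brain. It was at 1403, 1475 and 1534 in mKO RGCs and at 2134, 2186 and 2518 in WT RGCs, and fell by 0.63 ± 0.077 (log2, SE; limma adjusted p = 0.00131). Blcap, which encodes a small conserved protein, is maternally expressed in brain. Blcap was at 1325, 1367 and 1345 against 1732, 1715 and 1633, and fell by 0.33 ± 0.051 (log2, SE; limma adjusted p = 0.00296). Both genes separated the genotypes completely in RGCs. With the GC trend removed, Nnat was at -0.14 and Blcap at -0.15, neither of them called. In non-RGCs the log2 differences were -0.31 ± 0.17 for Nnat and -0.18 ± 0.12 for Blcap (limma adjusted p = 0.261 and 0.328).

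Genes of the Peg3 and Peg10 clusters were among those that rose. Peg3 encodes a large zinc-finger protein of neurons and placenta. It was at 3473, 3104 and 4128 in mKO RGCs and 2623, 2964 and 2426 in WT RGCs (0.41 ± 0.12, log2, SE; limma adjusted p = 0.0314). That call was lost when mKO library A or C or WT library A was left out (highest limma adjusted p = 0.0873). It was also lost with the GC trend removed and without the mean-variance trend of the fit. In non-RGCs Peg3 was at 3142, 2262 and 2084 in mKO and 3029.8, 2683 and 1772 in WT, so the genotypes overlapped. Its neighbours were not called: Usp29, a deubiquitinase-family gene, was at 391.9 to 487 against 236 to 391.9 in RGCs, and the maternally expressed Zim1, a zinc-finger gene, at 186 to 266 against 78.2 to 316.

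Peg10, a retrotransposon-derived gene needed for the placenta, was at 806, 705 and 738 in mKO RGCs and 456, 558 and 549 in WT RGCs. It rose by 0.53 ± 0.099 (log2, SE; limma adjusted p = 0.00646) and by 0.43 with the GC trend removed (limma adjusted p = 0.0305; 0.00189 to 0.0847 over all settings). Sgce, which encodes epsilon-sarcoglycan and starts next to Peg10, was at 636, 699.8 and 614 against 675, 687 and 770.2. Its difference of -0.13 ± 0.083 (log2, SE) was not called as measured (limma adjusted p = 0.257) and was called at -0.36 with the GC trend removed (limma adjusted p = 0.027; over all settings 0.0216 to 0.962). Ppp1r9a encodes neurabin, an actin-binding partner of protein phosphatase, and is maternally expressed in a few tissues. It was at 2775, 2733 and 2926 in mKO RGCs and 2227, 2375 and 2112 in WT RGCs, and rose by 0.33 ± 0.062 (log2, SE; limma adjusted p = 0.00628), or by 0.24 without the GC trend, where it was not called. In non-RGCs Peg10 and Ppp1r9a overlapped between genotypes. Asb4, an ankyrin-repeat gene of the same region, was at 22.7 to 27.7 in mKO RGCs and 7.10 to 35.0 in WT RGCs. Calcr, the calcitonin receptor, held 0 to 12 reads in every RGC library and 0 to 4 in every non-RGC library.

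Impact, an inhibitor of the kinase GCN2 that is abundant in neurons, was at 915, 885 and 932 in mKO RGCs and at 647, 682 and 607 in WT RGCs. It rose by 0.50 ± 0.066 (log2, SE; limma adjusted p = 0.00176), and over all settings its adjusted p ran from 0.00027 to 0.0487. In non-RGCs Impact was at 669, 622 and 521 in mKO and 495, 462 and 391 in WT. Those groups did not overlap either, but the difference of 0.43 ± 0.16 (log2, SE) was not called (limma adjusted p = 0.11). Copg2, a coatomer subunit gene, was at 1414, 1522 and 1481 in mKO RGCs against 1259, 1297 and 1326. The call for its rise of 0.19 ± 0.054 (log2, SE; limma adjusted p = 0.0333) was lost when any 1 library but WT C was left out. That call was also lost with no filter on low values and without the mean-variance trend of the fit. Without the GC trend the value was -0.0050. Copg2 shares 912 exonic bases with its partner Mest, which lies on the other strand. Mest, a hydrolase-family gene of growing mesoderm, was at 757 to 769.9 in mKO RGCs and 708 to 1129 in WT RGCs.

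Base composition of the gene starts is shown for members from both directions of call. Imprinting control regions are methylated at CG pairs, but these windows are gene starts and were not chosen as control regions. No methylation was measured here. Below are the 250 bases before RefSeq transcript starts (GRCm38.p6, 5′ to 3′, plus strand unless stated), with every CG in capitals. Gnas has 4 listed starts, of which the first and the last are shown.
Gnas, first start, chr2:174284070-174284319: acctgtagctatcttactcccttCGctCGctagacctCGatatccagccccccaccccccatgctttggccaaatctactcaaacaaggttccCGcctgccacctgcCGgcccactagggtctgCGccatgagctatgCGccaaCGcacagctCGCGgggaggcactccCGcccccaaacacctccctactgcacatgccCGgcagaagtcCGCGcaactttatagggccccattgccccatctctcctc
Gnas, last start, chr2:174329756-174330005: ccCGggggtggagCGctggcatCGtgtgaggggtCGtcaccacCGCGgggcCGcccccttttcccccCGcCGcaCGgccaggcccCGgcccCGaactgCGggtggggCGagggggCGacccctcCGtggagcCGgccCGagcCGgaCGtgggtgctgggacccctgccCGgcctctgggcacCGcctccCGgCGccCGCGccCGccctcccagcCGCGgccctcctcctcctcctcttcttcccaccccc
Ndn, chr7:62348027-62348276: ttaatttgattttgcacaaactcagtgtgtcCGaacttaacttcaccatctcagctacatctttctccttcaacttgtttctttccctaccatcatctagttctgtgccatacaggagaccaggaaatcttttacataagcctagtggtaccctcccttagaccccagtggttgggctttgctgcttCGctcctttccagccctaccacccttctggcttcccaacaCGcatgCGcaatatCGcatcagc
Nnat, chr2:157559828-157560077: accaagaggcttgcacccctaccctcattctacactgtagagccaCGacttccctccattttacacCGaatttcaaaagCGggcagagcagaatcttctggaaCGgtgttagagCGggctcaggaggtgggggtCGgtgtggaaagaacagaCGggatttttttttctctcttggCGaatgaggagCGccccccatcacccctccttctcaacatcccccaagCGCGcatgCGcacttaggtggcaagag
Ube3a, chr7:59228500-59228749: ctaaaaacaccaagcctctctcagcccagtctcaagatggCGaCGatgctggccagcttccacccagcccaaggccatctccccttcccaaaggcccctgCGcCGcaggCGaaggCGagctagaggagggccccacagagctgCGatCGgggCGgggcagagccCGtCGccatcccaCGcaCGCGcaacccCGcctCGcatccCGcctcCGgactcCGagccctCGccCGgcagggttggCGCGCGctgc
Peg3, chr7:6730420-6730669, minus strand: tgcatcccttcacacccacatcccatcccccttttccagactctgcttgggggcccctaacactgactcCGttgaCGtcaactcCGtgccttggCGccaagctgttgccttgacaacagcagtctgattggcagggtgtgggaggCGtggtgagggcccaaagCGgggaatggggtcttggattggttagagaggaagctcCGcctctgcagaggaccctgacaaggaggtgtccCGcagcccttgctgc
The last Gnas window held 29 CG pairs and the first 14, the Ube3a window 24, Nnat 12, Peg3 8 and Ndn 5. The median over all 32851 listed promoter windows of that length was 6, and over the 48 windows of members 10. The Peg3 window overlaps that of Usp29, which starts on the other strand. The letters TGCCGC, the hexamer bound by ZFP57 when methylated, were searched on both strands. They occurred in 9 of the 48 member windows (18.8%) and in 8.68% of all windows. The hexamer itself holds a CG pair and member windows held more CG pairs. These shares were not matched for CG content, so they do not show an excess of the hexamer as such. Of the 12 members called in RGCs, 9 had listed windows, and only that of Copg2 held those letters. Of the members' windows, a pair of Gnas and a pair of Mest windows overlap, and each window of that Mest pair held the letters. A match is a run of letters, not a measured site. Promoter sequence was available for 32 of the 38 members, without H19, Cdkn1c, Peg10, Sgce, Dcn and Impact.

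H19 and Igf2 share a control region on chromosome 7, H19 as the maternally expressed noncoding RNA and Igf2 as the paternally expressed growth factor. In non-RGCs Igf2 was at 929, 1069 and 672 in mKO and at 1504, 2148 and 1283 in WT. It fell by 0.88 ± 0.22 (log2, SE; limma adjusted p = 0.0347), to 54.4% of WT. That call was lost when any 1 library but WT C was left out and on scaling to total reads. It was also lost with the GC trend removed and without the mean-variance trend of the fit (limma adjusted p = 0.0294 to 0.155 over all settings). In RGCs Igf2 was at 1651, 579 and 801 in mKO and at 1682, 3685 and 720.1 in WT, a spread within each genotype larger than the difference between them (-0.85 ± 0.61, log2, SE; limma adjusted p = 0.313). H19 was at 983, 1109.7 and 1217 in mKO non-RGCs and 1267, 1621 and 1564 in WT non-RGCs (-0.42 ± 0.14, log2, SE; limma adjusted p = 0.0806). In RGCs H19 was at 1243, 878 and 902 against 1321, 2218 and 960.5 (-0.50 ± 0.29, log2, SE; limma adjusted p = 0.218). Igf2 shares 3596 exonic bases with a same-strand gene model, Gm49394.

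The Dlk1-Meg3 cluster on chromosome 12 carries the paternally expressed Dlk1, a transmembrane Notch-family ligand, and maternally expressed noncoding RNAs. Dlk1 was at 342, 37.8 and 92.2 in mKO RGCs and at 364, 1099 and 22.2 in WT RGCs. In non-RGCs it was at 28.5, 109 and 21.2 in mKO and at 88.4, 477 and 66.7 in WT. The differences of -0.97 ± 1.42 and -1.78 ± 0.76 (log2, SE) were not called (limma adjusted p = 0.621 and 0.151), and without WT RGC library B the RGC value became 0.22. Meg3 was at 7645, 8764 and 11226 in mKO RGCs and at 9911, 6746 and 6155 in WT RGCs (0.29 ± 0.20, log2, SE; limma adjusted p = 0.302). In non-RGCs Meg3 was at 1440.2, 2099 and 1425 in mKO and at 1923, 764 and 840.4 in WT (0.60 ± 0.31, log2, SE; limma adjusted p = 0.231). Rian, a host of small nucleolar RNAs, was at 2255 to 2920.0 in mKO RGCs and 2277 to 2642 in WT RGCs, and Mirg, a host of microRNAs, at 228 to 371 and 121 to 395. None of the 3 noncoding RNAs separated the genotypes in either fraction.

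Levels of Dlk1, Dcn and Igf2 differed widely between RGC libraries of 1 genotype, and so did genes of mesenchyme, a tissue outside the retina proper. The summed level of 8 mesenchyme and fibroblast markers (Col1a1, Col1a2, Col3a1, Lum, Postn, Fbln1, Twist1 and Foxc1) was 7564, 1078 and 2626 in mKO RGCs and 5764, 16957 and 849.6 in WT RGCs. In non-RGCs it was 1090.4, 1414 and 916 in mKO and 1518, 7789.7 and 1039 in WT. In each fraction the WT library lettered B held the highest sum and also the highest Dlk1, Dcn and Igf2, though the letters do not pair libraries across fractions. H19 did not follow the sum in mKO non-RGCs, where library C had the lowest sum and the highest H19. Dcn, the matrix proteoglycan decorin, maternally expressed in placenta, was at 436, 28.6 and 104 in mKO RGCs and 146, 644 and 3.50 in WT RGCs, and at 17.0, 34.5 and 11.3 against 24.4, 182 and 1.04 in non-RGCs. Of the 8 markers, 1 (Fbln1) was called lower in RGCs (beside 21.2% of all genes). In non-RGCs 0 of 7 tested were called (beside 4.18% of all genes higher and 6.43% lower). Their part in the values of these members was not tested. Without WT RGC library C, the one with the lowest sum, 12 members were called lower in RGCs (H19, Igf2, Dlk1, Magel2, Nap1l5 and Inpp5f joined the 6), while the share of all genes called lower went from 21.2% to 27.6%.

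**Figure D3:**
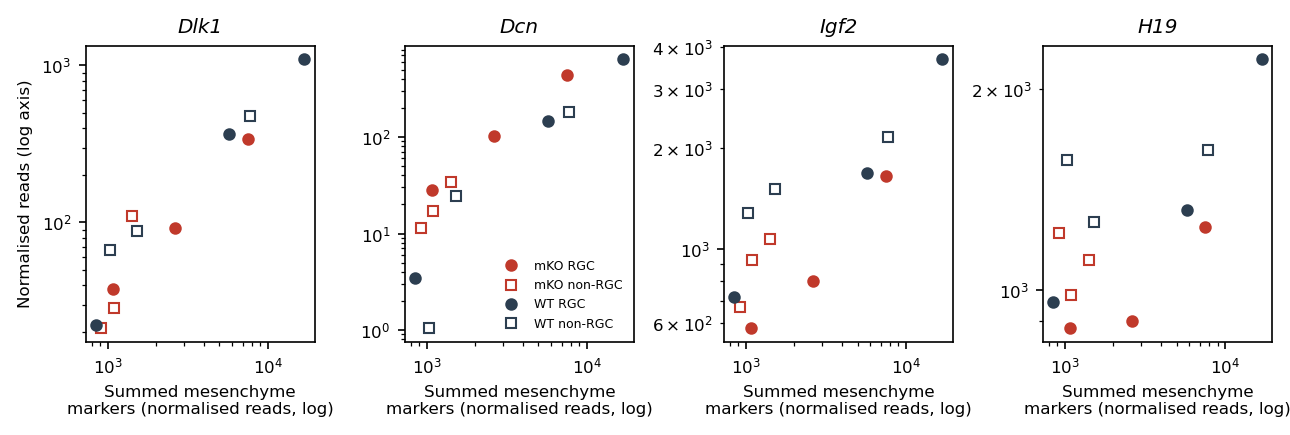
Normalised reads (vertical, log axis) of Dlk1, Dcn, Igf2 and H19 against the summed normalised reads of 8 mesenchyme markers (horizontal, log axis), 1 point per library, filled for RGCs and open for non-RGCs, red for mKO and dark for WT. WT RGC library B, with a marker sum of 16957, lies at the top right for each of the 4 genes.

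Cdkn1c, the maternally expressed inhibitor of cyclin-dependent kinases p57, belongs to the Kcnq1ot1 domain. It was at 918, 1012 and 899 in mKO RGCs and at 1159, 1337 and 1206 in WT RGCs, without overlap. It fell by 0.39 ± 0.078 (log2, SE; limma adjusted p = 0.00838). Its exons hold 59.8% GC, the highest of the members tested, and with the GC trend removed its value was 0.13 (limma adjusted p = 0.344; 0.00349 to 0.344 over all settings). In non-RGCs the genotypes overlapped, at 851, 881 and 1375 in mKO and 993, 1128 and 1157 in WT. The domain's other members were near the detection limit: Phlda2 held 0 to 5 reads in every library, and Slc22a18, an organic ion transporter gene, held 7 to 14 reads in RGC libraries, 3 in 1 WT non-RGC library and 0 in the other 5 non-RGC libraries. Because 3 reads is taken as the floor that a count of 0 allows, no fold change is given for these values in non-RGCs.

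The remaining members were not called in either comparison. Igf2r, the receptor that clears IGF2, was at 1273 to 1529.5 in mKO RGCs and 1227 to 1746 in WT RGCs, and Airn, the noncoding RNA of the same locus, held 2 to 15 reads in every library. Grb10, an adaptor that dampens insulin signalling, was at 3104 to 3394 in mKO non-RGCs and 3839 to 4403 in WT non-RGCs, without overlap (-0.32 ± 0.10, log2, SE; limma adjusted p = 0.0761). Rasgrf1, a Ras exchange factor, was at 9.25, 5.75 and 4.24 in mKO non-RGCs and 18.9, 24.2 and 14.6 in WT non-RGCs, also without overlap (-1.48 ± 0.42, log2, SE; limma adjusted p = 0.054), on 3 to 25 reads a library. Inpp5f, an inositol phosphatase, was at 1371 to 1428 in mKO non-RGCs and 1159 to 1208 in WT non-RGCs (0.25 ± 0.11, log2, SE; limma adjusted p = 0.164). Plagl1, a zinc-finger growth regulator, and Mest also lay lower without overlap in mKO non-RGCs, and Zrsr1, a splicing factor gene, lay higher. Nap1l5, a nucleosome assembly gene inside Herc3, was at 959 to 1009.6 in mKO RGCs and 1034 to 1160.5 in WT RGCs (-0.17 ± 0.066, log2, SE; limma adjusted p = 0.079). Mcts2, a retrogene inside H13, was at 138 to 248.5 in all 12 libraries.

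Whole separation of the genotypes was common in these data. In RGCs 7 of 35 members had every mKO library below every WT library (20%, beside 28.2% of all genes) and 6 had every mKO library above (17.1%, beside 24.8%). In non-RGCs the counts were 8 of 34 below (23.5%, beside 19.2%) and 4 above (11.8%, beside 17.5%).

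As measured, maternally and paternally expressed members were each called in both directions in RGCs. In RGCs 3 of 14 maternally expressed members rose (Copg2, Ube3a and Ppp1r9a) and 2 fell (Cdkn1c and Blcap). Of 19 paternally expressed members, 3 rose (Peg3, Peg10 and Impact) and 3 fell (Ndn, Snrpn and Nnat). Over all genes tested in RGCs, 16.3% rose and 21.2% fell. The median log2 change was 0.24 for maternally and -0.13 for paternally expressed members, beside -0.0024 for all genes. All 3 maternally expressed members that rose are imprinted in some tissues only, and without members of that kind the maternal median was 0.022. With the GC trend removed the medians were 0.077 and -0.14, beside 0.048 for all genes. Then 0 of 14 maternally expressed members were called. Of 19 paternally expressed members, 2 were called higher and 4 lower, beside 4.37% and 8.58% of all genes. In non-RGCs 0 of 13 maternally expressed members were called, and 1 of 19 paternally expressed members was called lower. Of all genes there, 4.18% were called higher and 6.43% lower. The non-RGC medians were -0.083 for maternally and -0.013 for paternally expressed members, beside -0.026 for all genes. The maternal median in RGCs became -0.15 without WT RGC library C.

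**Figure D4:**
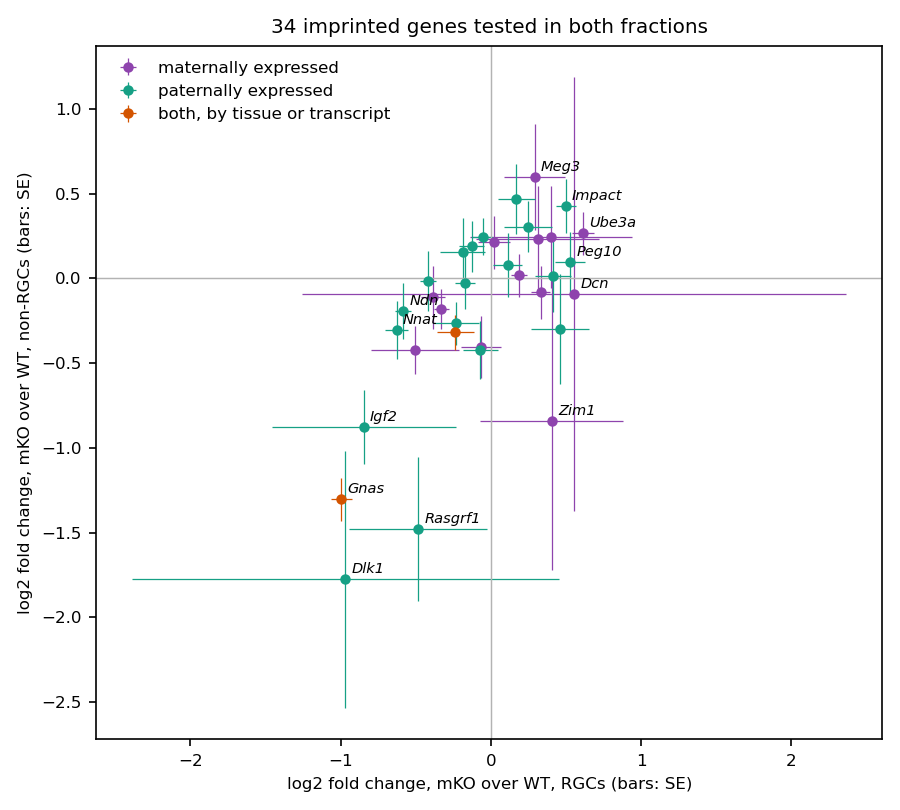
log2 fold change (mKO over WT) in non-RGCs (vertical) against RGCs (horizontal) for the 34 members tested in both fractions, coloured by the expressed parental copy; bars are standard errors. Gnas lies at -0.997 and -1.30 with short bars, while Dlk1 and Dcn carry the longest bars, and the maternal and paternal points intermingle.

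Per exon length, as RPKM (reads scaled to exon length and to the assigned reads of the library), the members spanned a wide range of levels. Nnat was highest in WT RGCs (99.7 ± 10.1, SD, n = 3), followed by Snrpn (61.3 ± 1.3), Ndn (49.5 ± 2.1), H19 (48.6 ± 20.4), Nap1l5 (48.4 ± 2.7) and Cdkn1c (48.4 ± 3.2). The neighbours from Ndn to Cdkn1c in this order lay within their own spread. The deposited values are named as deduplicated, which can hold down the highest levels per base, so this order and the ratios below are a description. Phlda2, Calcr, Airn, Rasgrf1 and Asb4 were the lowest, at 0.46 or less. Because the fractions were normalised in separate tables, levels across them are a description. In 11 members every RGC library lay above every non-RGC library, and in 3 every one lay below. Among the 34 tested in both fractions these were 10 (29.4%, beside 15.7% of 14894 genes) and 3 (8.82%, beside 16.4%). The RGC-high members included Meg3 (33.6 in WT RGCs and 5.84 in WT non-RGCs), Nap1l5 (48.4 and 14.4), Rian (10.8 and 3.16), Snrpn (61.3 and 32.7) and Inpp5f (28.6 and 12.7). The 3 members lower in RGCs were Grb10 (24.1 and 40.3), Mest (18.5 and 26.6) and Peg10 (6.24 in WT RGCs, 0.48 times its level in WT non-RGCs). Among members called lower in mKO RGCs, Snrpn and Blcap were RGC-high in this sense. Ndn and Gnas were RGC-high among the WT libraries only, with RGC over non-RGC ratios of 1.28 and 1.40, and Nnat and Cdkn1c overlapped between fractions. RGC marker genes were lower in the same mKO RGC libraries in which these members were called. There 4 of 8 photoreceptor and 4 of 8 amacrine and horizontal markers were also called lower (beside 21.2% of all genes) and 0 higher. In non-RGCs these counts were 5 and 3 lower (beside 6.43%) and 0 higher. With the GC trend removed, 1 of each list was called lower in RGCs (beside 8.58%). The part of cell composition in the calls of members was not tested.

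**Figure D5:**
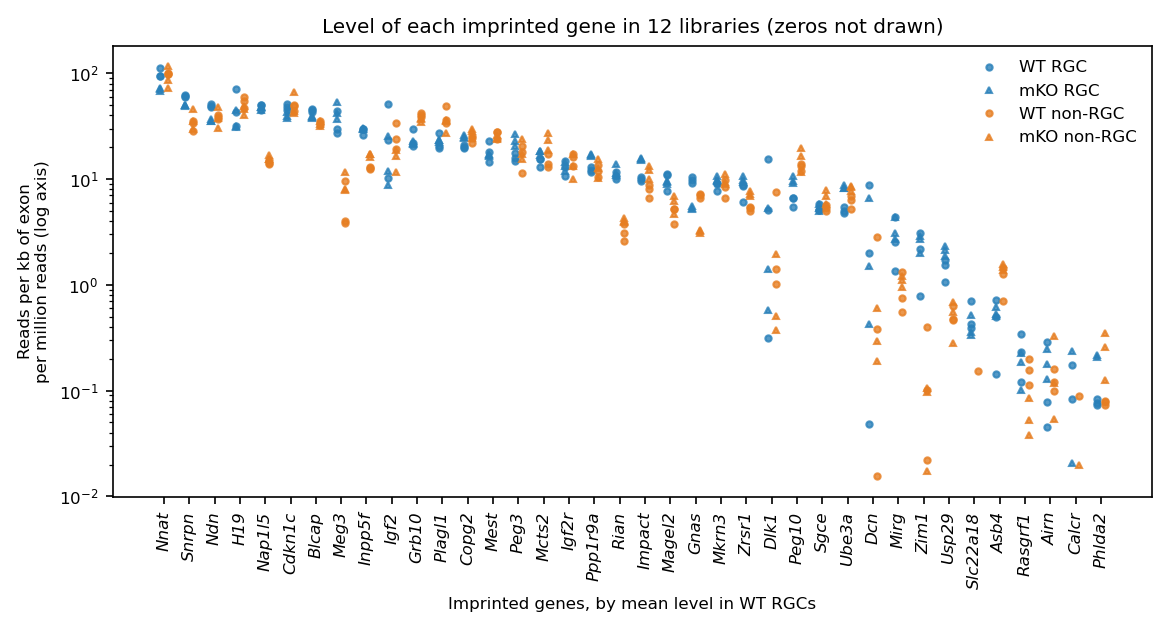
Level of the 38 members (RPKM, log axis) in each of the 12 libraries, ordered by the mean in WT RGCs; circles are WT and triangles mKO, blue RGC and orange non-RGC, and zeros are not drawn. Meg3 and Nap1l5 separate the fractions, and Dlk1 and Dcn spread widely within a group.

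Genes that maintain imprints were called in both directions, and the PRC2 subunits Eed, Suz12, Ezh2 and Ezh1 in neither fraction. Of 19 tested in RGCs, 4 rose (Arid4a, Arid4b, Smchd1 and Atrx) and 3 fell (Trim28, Dnmt1 and Ehmt2), with a median log2 change of 0.087. Over all genes tested in RGCs, 16.3% rose and 21.2% fell, so these shares are near those of all genes. In non-RGCs 2 of 19 rose (Arid4a and Arid4b) and 3 fell (Dnmt1, Dnmt3a and Ehmt2), with a median of -0.15. Over all genes tested in non-RGCs, 4.18% rose and 6.43% fell. Arid4a and Arid4b, retinoblastoma-binding proteins that act on the imprinting centre of the Snrpn cluster, rose by 0.57 and 0.63 in RGCs and by 0.70 and 0.47 in non-RGCs (log2). Dnmt1, the maintenance DNA methyltransferase, fell by 0.37 and 0.53, and Ehmt2, the H3K9 methyltransferase G9a, fell by 0.70 and 0.59. Trim28, the corepressor recruited by ZFP57, fell by 0.68 in RGCs (limma adjusted p = 0.000875). With the GC trend removed, 1 of these genes, Arid4a, was called higher and 2, Trim28 and, only just, Ehmt2, lower in RGCs (beside 4.37% and 8.58% of all genes). Calls for Arid4b, Smchd1, Atrx and Dnmt1 in RGCs were then lost, with log2 values of 0.25, 0.015, -0.12 and -0.14. In non-RGCs 0 were then called.

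Partners of IGF2 and related growth genes were tested as a list of 16. In RGCs 1 rose, Igf2bp3, an RNA-binding protein of the Igf2 transcript, and 5 fell, Cdkn1c, Cdkn1a, Igfbp2, Irs1 and Irs2, with a median of -0.23. Over all genes tested in RGCs, 16.3% rose and 21.2% fell. In non-RGCs 0 rose and 1, Irs2, an insulin receptor substrate, fell (beside 4.18% and 6.43% of all genes), with a median of -0.42 over the list. With the GC trend removed Igf2bp3 stayed called, the 5 that fell in RGCs and Irs2 in non-RGCs did not, and Cdkn1b was called lower in RGCs. Among 43 other imprinted genes that are not members, 30 were tested in RGCs. Of these, Zdbf2 rose and 7 fell (Begain, Trappc9, Tssc4, Cd81, Osbpl5, Dhcr7 and Zfp787), with a median of -0.045. The 7 that fell are a share near the 21.2% of all genes, while the 1 that rose is a share below the 16.3%. With the GC trend removed 0 were called higher and 2 lower, Cd81 and Dhcr7 (beside 4.37% and 8.58% of all genes). In non-RGCs 0 of 28 were called (beside 4.18% of all genes higher and 6.43% lower), with a median of -0.26. Globin and other blood markers were called higher in mKO in both fractions, 5 of 5 tested in each (beside 16.3% of all genes in RGCs and 4.18% in non-RGCs). The sums of blood markers were 284 to 345 against 121 to 137 in RGCs and 564 to 866 against 129 to 213 in non-RGCs. Retinal pigment epithelium markers were also called higher, 2 of 2 tested in RGCs and 3 of 3 in non-RGCs, beside the same shares of all genes. With the GC trend removed the counts were 0 and 3 (beside 4.37% and 0.745% of all genes). Their part in the members' values was not tested.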

How the data were processed

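Poly(A) RNA of 12 libraries was sequenced as single reads. According to the submitters' processing notes, reads were aligned to mm10 with STAR 2.3.1z4 and counted with featureCounts. The names of the deposited tables carry the word dedup, so duplicate reads were probably removed before counting. With single reads, that limits the reads counted per start position. Its effect on high levels per base and on fold changes was not tested. The deposited tables, 1 per fraction, hold a signal value per gene and group: the mean over 3 libraries of counts the authors divided by size factors. They also hold the authors' fold changes and p-values, which were not used. Because each mean is a sum of whole reads times 3 fixed weights, the reads of each library were recovered from its digits, uniquely for 100% of genes with reads in each group; on simulated means of 3818 to 3835 genes per group all were recovered. The letters A, B and C follow depth, 7139633 to 13014004 reads; recovered libraries could not be tied to replicate numbers. Recovered values are not counts as deposited, so limma 3.58.1 (R 4.3.3, mean-variance trend, two-sided, Benjamini-Hochberg) was run on log2(normalised reads + 1) for genes averaging 10 or more normalised reads in at least 1 genotype. Fold changes are on that scale, which understates changes of low genes. The methods give 3 independent RNA extractions a group; the p-values measure the spread between these. Trends with exon GC were fitted by lowess (span 0.3) on genes averaging 50 or more. On simulated data, 200 of 200 changed genes were recovered in each fraction, with 8 false calls of 15852 genes in RGCs and 6 of 15131 in non-RGCs. With a GC trend added and not removed, 199 of 200 were recovered with 4654 and 4520 false calls; removing it left 8 and 7. Exon lengths, GC and overlaps came from GENCODE M21 (GRCm38), matched by symbol for 35654 of 38720 rows. All members, allele classes and lists were chosen with earlier results of these data known. All members are accounted for; library values are given for members called, for H19, Igf2, Dlk1, Meg3, Peg3, Cdkn1c and Gnas, and where they bear on a result, and other members are given by range. Alternatives were the pseudocount, the filter, the scaling, trends with GC and reads per base, no mean-variance trend, each library left out, and the study's call thresholds applied to the limma values.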

Additional observations from a re-analysis of the deposited data

How the results depend on the processing

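No paired analysis was possible because the recovered libraries carry no replicate numbers. Beside 6 higher and 6 lower members in RGCs, 2 were higher with the GC trend removed, 1 with trends in GC and reads per base removed, and 1 higher and 3 lower at an unadjusted p under 0.05 with a fold change of at least 1.5 (beside 10% and 6.22% of all genes); leaving out 1 library gave 4 to 6 higher and 6 to 12 lower. Beside 0 higher and 2 lower in non-RGCs, scaling to total reads gave 1 and 1, removing either trend 1 lower, the unadjusted rule 4 lower (beside 6.79% of all genes), and leaving out 1 library 0 to 1 higher and 1 to 2 lower. The difference between fractions called 0 members under every setting. Median log2 changes in RGCs were 0.077 (GC trend removed), 0.027 (GC and reads per base) and 0.022 (without members imprinted in some tissues only) for maternally expressed members, and -0.0064 (total reads) and -0.00034 (GC and reads per base) for paternally expressed members; with 1 library left out they ran from -0.15 to 0.24 and from -0.16 to -0.07. In non-RGCs the maternal median was 0.089 with total reads and 0.052 without tissue-limited members, and the paternal median 0.16 with total reads and 0.079 without members whose exons overlap another gene; with 1 library left out they ran from -0.067 to 0.066 and from -0.091 to 0.067. Removing the GC trend reversed Cdkn1c (0.13) and Copg2 (-0.0050) in RGCs, and removing it with reads per base reversed Cdkn1c (0.30), Nnat (0.19) and Blcap (0.065). The Dlk1 value in RGCs ran from -2.56 to 0.22 with 1 library left out. Scaling to total reads moved the median of all genes to 0.12 in RGCs and 0.15 in non-RGCs. The cause of these shifts was not tested. Members with few reads (Rasgrf1, Asb4 in RGCs, Airn, Calcr, Phlda2, Slc22a18) are limited by depth.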
